A study of Homo sapiens with 60 samples.

Results

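The 78 genes described here encode the mitochondrial ribosomal proteins, as picked by symbol: every gene symbol made of MRPL or MRPS, a number and at most 1 of the letters A, B or C. They were 78 of the 57665 genes in the table, no symbol had several rows, and all 78 passed the filter on low counts. RNA was sequenced from U2OS, an established human osteosarcoma line with the genotype label WT, that stably expressed Dmr-PERK. Dmr-PERK joins the kinase domain of mouse PERK to a DmrB domain, so that the ligand AP20187 (dimerizer) activates it and eIF2 alpha is phosphorylated. All groups carried this construct, and the labels do not say whether the line is 1 clone. Groups of 3 libraries received dimerizer at 0.01, 0.2 or 3 nM and were collected at 6 times, 1, 2, 4, 8, 16 and 24 h later. The middle dose is written here rounded, as in the series text, and unrounded in the plots. A further 6 libraries were untreated (0 h), labelled as 2 sets of 3. No untreated library has a later time, so time in culture and dimerizer cannot be told apart against untreated or between times. The labels do not say that replicates are independent cultures, so p-values measure only the spread between these samples.

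The mitochondrial ribosome makes the 13 proteins encoded by mitochondrial DNA, all of them parts of the respiratory chain or of ATP synthase. Its RNAs come from mitochondrial DNA, whereas its proteins are encoded in the nucleus, made in the cytosol and imported. Its large subunit holds the site of peptide bond formation and the exit tunnel, and its small subunit binds the mRNA and decodes it. Some of its proteins have bacterial counterparts and others arose in mitochondria. Phosphorylated eIF2 alpha lowers cytosolic protein synthesis while the transcription factor ATF4 is made, which is the integrated stress response. Of the 78 members, 51 belong to the large subunit, including MRPS18A and MRPS30 despite their symbols, and 26 to the small one. MRPS36 is not part of the ribosome and is now known as a subunit of the alpha-ketoglutarate dehydrogenase complex. It is counted with the 78 and described apart.

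Values are CPM, counts scaled to library size with TMM factors, except where TPM (scaled per length) is named. The 39 libraries of untreated set 1 and of both lower doses held total counts of 5598612 to 10367375. The 21 libraries of set 2 and of the 3 nM dose held 20713699 to 28436165. No label explains this split, and it separates 3 nM from the lower doses, so depth and dose cannot be told apart between 0.2 and 3 nM except relative to the untreated set of like depth. The untreated sets differed: mRNAs of mitochondrial DNA took 8.84% ± 0.615 of the counts in set 1 (SD, n = 3) and 4.44% ± 0.053 in set 2. Between these sets, 2 members were called higher and 20 lower in set 2 (28.9% of all genes tested were called), with a median difference of -0.08 on the log2 scale. On TPM the sign turned, with 23 members higher and none lower in set 2 and a median of 0.14. There 5731 of all 19305 genes were called higher and 266 lower, and the median of all genes lay at 0.24, against 0.02 with TMM. The members' median thus lay below that of all genes on both scales. A call is an adjusted p under 0.05 in edgeR's quasi-likelihood test, with Benjamini-Hochberg adjustment over 18040 genes. Of the cell type markers, 6 mesenchymal genes summed to 4873 to 5362 TPM in untreated libraries and 1593 to 1625 TPM after 24 h at 3 nM. In the same groups 6 epithelial markers summed to 759.7 to 990.1 and 655.4 to 659.6 TPM, and 6 blood markers to at most 0.837 TPM. Their part in the results was not tested. In bulk RNA, fewer cells and less RNA per cell cannot be told apart, and all values are shares of a library.

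In untreated cells the members spanned 39.1-fold in TPM, with a mean of 278.8 for MRPS24 at the top, 7.14 for MRPL57 at the bottom and a median of 60.4. MRPS24, which is the uS3 protein at the mRNA entry of the small subunit, ran from 258.5 to 306.5 TPM over the 6 untreated libraries. MRPL51 (218.1 to 280.6 TPM) and MRPL33 (200.3 to 274.7 TPM), both of the large subunit, overlapped that range and each other. MRPL57 (5.757 to 8.237 TPM) and MRPS31 (8.083 to 10.12 TPM) overlapped at the bottom, and MRPL50 lay just above them (10.27 to 13.38 TPM). Within a group of 3 libraries, the coefficient of variation of a member's CPM had a median of 4.74%.

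After 24 h at 3 nM, most mitochondrial ribosomal protein mRNAs were more abundant than in untreated cells. Of the 78 members, 61 were called higher and 6 lower (77.1% of all genes tested were called, 41.1% higher and 36% lower). The median log2 fold change was 0.43, against 0.05 over all genes tested. Most changes were small: 29 members were at least 1.5-fold higher, 9 were at least 2-fold higher and none was 2-fold lower. Against untreated set 1 alone 56 were higher and 6 lower (median 0.38), and against set 2 alone 62 and 4 (median 0.48).

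**Figure D1:**
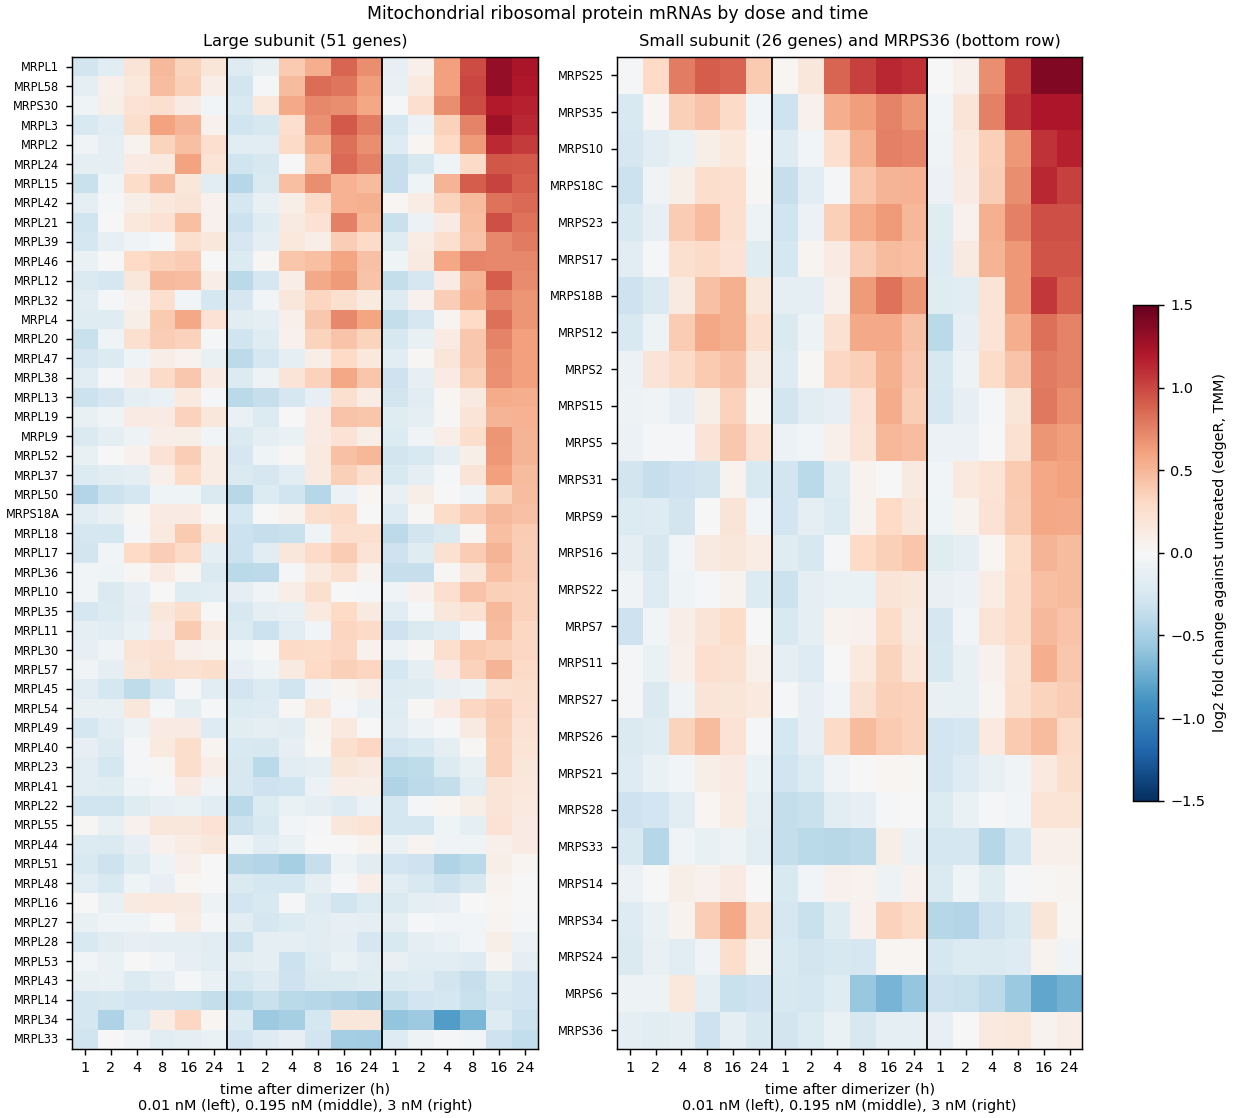
Log2 fold change against untreated of the 78 members (rows, ordered by the change after 24 h at 3 nM within each subunit) for 6 times (columns, h) at 3 doses. Red is higher and blue lower. Most rows turn from pale blue at 1 h to red at 16 and 24 h, most deeply at 3 nM, with MRPS25 the reddest, while MRPS6, MRPL33 and MRPL14 stay blue late at 0.2 and 3 nM.

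Both subunits took part. In the small subunit 21 of 26 members were higher and 1 lower, with a median of 0.52, and in the large subunit 40 of 51 were higher and 5 lower, with a median of 0.37. Proteins with a bacterial counterpart were higher for 24 of 31 in the large and 12 of 15 in the small subunit. Those particular to mitochondria were higher for 16 of 20 and 9 of 11. The 8 proteins around the exit of the peptide tunnel were all called higher (median 0.31), and with DESeq2's size factors 5 of them were (median 0.28). Of the 8 members of the central protuberance 5 were higher and none lower (median 0.29), and of the 5 stalk proteins, which recruit elongation factors, 4 were higher and MRPL53 was lower. The subunits and classes were not tested against each other.

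MRPS25, a small subunit protein with no bacterial counterpart, stood highest. It measured 24.8, 21.9 and 20.6 CPM in untreated set 1, 30.5, 31.6 and 28.6 in set 2, and 72.4, 66.8 and 64.9 after 24 h at 3 nM. All 3 treated libraries lay more than 2-fold above each untreated one, and set 2 lay above set 1. The log2 fold change was 1.38 ± 0.055 (SE, adjusted p = 9.74e-31), or 1.60 against set 1 and 1.17 against set 2.

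MRPL58 is a peptidyl-tRNA hydrolase that became a fixed part of the large subunit. Its untreated values were 20.8, 17 and 17.3 CPM in set 1 and 21.8, 21 and 18.5 in set 2, and its values after 24 h at 3 nM were 45.4, 45.1 and 43.6. The treated libraries sat close together and apart from the untreated ones, with a log2 fold change of 1.20 ± 0.052. MRPL1, which lies at the mobile L1 stalk where spent tRNA leaves, went from 21 to 23.6 CPM over untreated libraries to 51.1, 51.5 and 53.9, a log2 fold change of 1.22 ± 0.055. MRPL3 and MRPL2 are core proteins near the site of peptide bond formation. MRPL3 went from 76.4 to 88.1 CPM in untreated libraries to 181, 178 and 173 (1.13 ± 0.036). MRPL2 went from 29.3 to 34.4 CPM to 67.8, 62.3 and 67.5 (1.05 ± 0.05). In neither case did the groups overlap. MRPS30, a large subunit protein with no bacterial counterpart, had 42.8 to 47.9 CPM untreated and 100, 104 and 96.4 at 3 nM (1.16 ± 0.036).

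In the small subunit, MRPS35 and MRPS10 followed MRPS25. MRPS35 had 37.9 to 44.8 CPM in untreated libraries and 96.8, 101 and 93.8 after 24 h at 3 nM, a log2 fold change of 1.22 ± 0.04. MRPS10, the uS10 protein of the head of the subunit, had 42.3 to 50.1 CPM and then 102, 111 and 99.5 (1.17 ± 0.038). Untreated and treated libraries were separate for both. The adjusted p-values of the 8 members with the highest fold changes, MRPS25, MRPL1, MRPS35, MRPL58, MRPS10, MRPS30, MRPL3 and MRPL2, ran from 8.95e-36 (MRPS30) to 8.75e-27 (MRPL2).

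MRPS6, the bS6 protein of the small subunit, was the member with the lowest fold change. It measured 54, 49.4 and 45.9 CPM in set 1 and 46.6, 48.1 and 42.2 in set 2, and 29.2, 29.4 and 29 after 24 h at 3 nM. All treated libraries lay below all untreated ones, with a log2 fold change of -0.71 ± 0.049 (adjusted p = 1.11e-19). MRPS6 (chr21:34073224-34143034, plus strand, GENCODE 29) contains on the same strand SLC5A3 (chr21:34073570-34106262), a myo-inositol transporter gene whose first exon lies within the first exon of the MRPS6 transcript MRPS6-201. SLC5A3, named after its values were seen, fell by 1.58 ± 0.056 on the log2 scale at the same dose and time. Salmon, which the submitters' processing notes name, divides reads shared by transcripts by estimation, and how far the MRPS6 value depends on that division was not tested.

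The other 5 members called lower belong to the large subunit and changed less. MRPL33 had 53.9 to 61.4 CPM in untreated libraries and 42.7, 44.8 and 45.1 at 3 nM (-0.37 ± 0.045). MRPL14, the uL14 protein at the face that meets the small subunit, had 106, 112 and 109 CPM in set 1, 90.2, 84 and 86.6 in set 2 and 84.3, 75.9 and 78.1 at 3 nM (-0.29 ± 0.044), so that 1 treated library lay within the range of set 2. MRPL43 had 47.3 to 54 CPM untreated and 41.2, 40.8 and 41.4 at 3 nM (-0.29 ± 0.045), with no overlap. MRPL34 and MRPL53 rested on the choice of control. MRPL34 had 22.1, 19.6 and 15.6 CPM in set 1 but 13.9, 14.3 and 13.7 in set 2, against 13.8, 12.6 and 12.7 at 3 nM, and its log2 fold change of -0.32 ± 0.085 became -0.09 (adjusted p = 0.351) against set 2 alone. It was not called on TPM either (adjusted p = 0.141). MRPL53 (-0.13 ± 0.057, adjusted p = 0.0308) had -0.04 (adjusted p = 0.608) against set 2 alone, and leaving out replicate 2 (adjusted p = 0.0599) or replicate 3 (0.144) at 3 nM, or replicate 1 of set 2 (0.0691), ended its call as well.

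**Figure D2:**
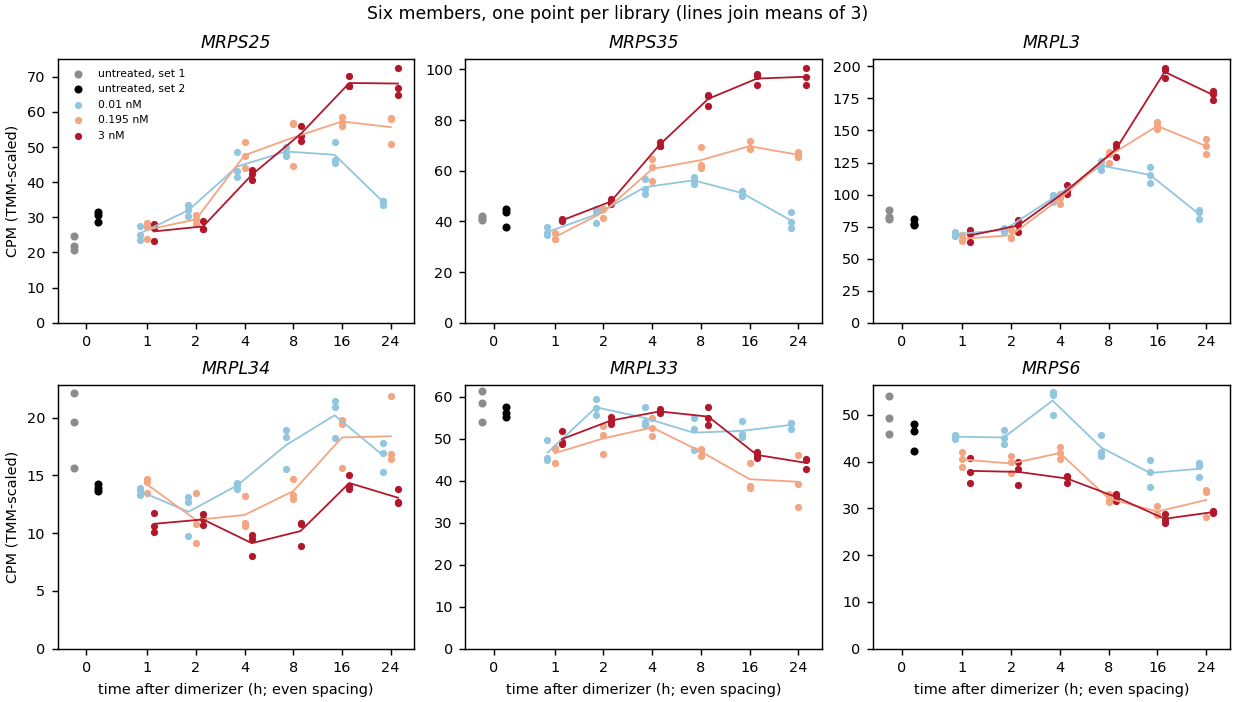
CPM of 6 members in each library (points) by hours after dimerizer, with lines through the means of 3 libraries for each dose and untreated sets at 0. For MRPS25, MRPS35 and MRPL3 the doses part after 8 h and the 3 nM libraries end highest, for MRPS6 the 0.2 and 3 nM libraries end lowest, and for MRPL34 untreated set 1 lies above set 2.

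The bases upstream of the member genes were searched for motifs. RefSeq gave a promoter window (GRCh38.p14, 250 bases before to 50 after the start) for 69 of the 78 members and for 27305 genes in all. Motifs were searched on both strands. CCGGAAG, a core site of ETS factors, was in 43.5% of the 69 member windows and 12.2% of all windows. ATGGCGG, a YY1-type motif that can also be read as a start codon followed by an alanine codon, was in 34.8% and 6.66%. A motif of the NRF1 type was in 13% and 6.98%, the E-box CACGTG in 13% and 8.77%, GGGCGG in 60.9% and 48.3%, and CCAAT in 33.3% and 39.7%. TGATGNAA, the form of site that ATF4 and its partners bind, was in 1 member window (1.45%) and in 4.46% of all windows. CCGGAAG was in 20 of the 53 windows of members called higher after 24 h at 3 nM and in 10 of the 16 of the other members. ATGGCGG was in 21 of the 53 and 3 of the 16. GGGCGG and the NRF1-type motif overlap other GC-rich motifs, and a match is a description of these letters only. A stretch of 150 bases that lies before the RefSeq start and overlaps no exon annotated in GENCODE 29 is shown for 4 members, with motif matches in capitals: MRPS25 and MRPS6, with the highest and lowest fold changes, and MRPL58 and MRPS18A, with the highest and lowest fold changes among members whose 150 bases hold CCGGAAG.
MRPS25, minus strand, chr3:15065336-15065485: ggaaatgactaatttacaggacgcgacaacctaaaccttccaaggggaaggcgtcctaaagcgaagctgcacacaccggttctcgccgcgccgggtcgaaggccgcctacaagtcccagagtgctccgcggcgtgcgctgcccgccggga
MRPL58, plus strand, chr17:75012520-75012669: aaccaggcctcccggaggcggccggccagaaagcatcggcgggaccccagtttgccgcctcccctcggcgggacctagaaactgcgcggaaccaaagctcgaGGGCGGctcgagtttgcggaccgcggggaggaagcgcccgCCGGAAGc
MRPS18A, minus strand, chr6:43687792-43687941: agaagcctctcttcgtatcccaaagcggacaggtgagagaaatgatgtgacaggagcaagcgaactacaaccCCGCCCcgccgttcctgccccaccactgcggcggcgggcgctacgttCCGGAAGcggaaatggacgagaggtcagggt
MRPS6, plus strand, chr21:34073373-34073522: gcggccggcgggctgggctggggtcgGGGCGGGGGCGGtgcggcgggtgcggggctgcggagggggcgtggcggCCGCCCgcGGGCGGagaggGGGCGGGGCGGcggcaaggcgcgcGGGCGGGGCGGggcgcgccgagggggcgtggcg
The MRPS25 stretch holds none of the 7 motifs. CCGGAAG ends 1 base before the RefSeq start in MRPL58 and 24 bases before it in MRPS18A, which rose by 1.20 and 0.44 on the log2 scale. The MRPS6 stretch holds GGGCGG 8 times, counting both strands and overlaps, and lies in an intron of a longer MRPS6 transcript.

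The rise was graded by dose after 24 h. The doses share their untreated libraries, so their counts are given side by side. At 0.2 nM 47 members were higher and 9 lower (65.5% of all genes were called, 34.3% higher and 31.2% lower), with a median log2 fold change of 0.19. At 0.01 nM 17 were higher and 14 lower (43.2% called, 21% higher and 22.2% lower), with a median of 0.01. Both counts lay near the shares of all genes, and this split rested on the scaling and the control. It became 33 higher and 2 lower on TPM, beside 5107 and 1404 of all 19305 genes, whose median itself lay at 0.14. Against set 1 alone 3 were higher and 14 lower (18.9% and 20.2% of all genes). Against set 2 alone 22 were higher and 8 lower (19.7% and 21.9% of all genes). Group means were ordered 0.01, 0.2, 3 nM from low to high for 58 of the 78 members at 24 h and for 49 at 16 h, and for 8 members at 1 h. The reverse order held for 4 members at 24 h and 21 at 1 h. These orders were not counted over all genes.

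Tested directly after 24 h, 55 members were higher at 3 than at 0.2 nM and 2 lower (56.1% of all genes called, 30.6% higher), with a median difference of 0.23. Taken relative to the untreated set of like depth, 54 were higher and none lower, and the median was 0.35. In that comparison 48.4% of all genes were called, 25.6% higher and 22.8% lower. On TPM, 35 were higher and 6 lower, beside 2968 and 3532 of all 19305 genes. MRPL58 (0.58 ± 0.061), MRPS30 (0.57 ± 0.043), MRPS35 (0.55 ± 0.047), MRPL1 (0.52 ± 0.064) and MRPL32 (0.51 ± 0.051) had the highest differences, with adjusted p-values from 2.22e-17 (MRPS30) to 3.78e-10 (MRPL1). For MRPL58 the 0.2 nM libraries at 27.3, 33.6 and 28.9 CPM lay between the untreated and the 3 nM libraries with no overlap. Both lower calls ended relative to the untreated set of like depth: MRPL34 went from -0.49 ± 0.1 to -0.03 (adjusted p = 0.879), and MRPS34 from -0.27 ± 0.055 to -0.02 (adjusted p = 0.835).

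**Figure D3:**
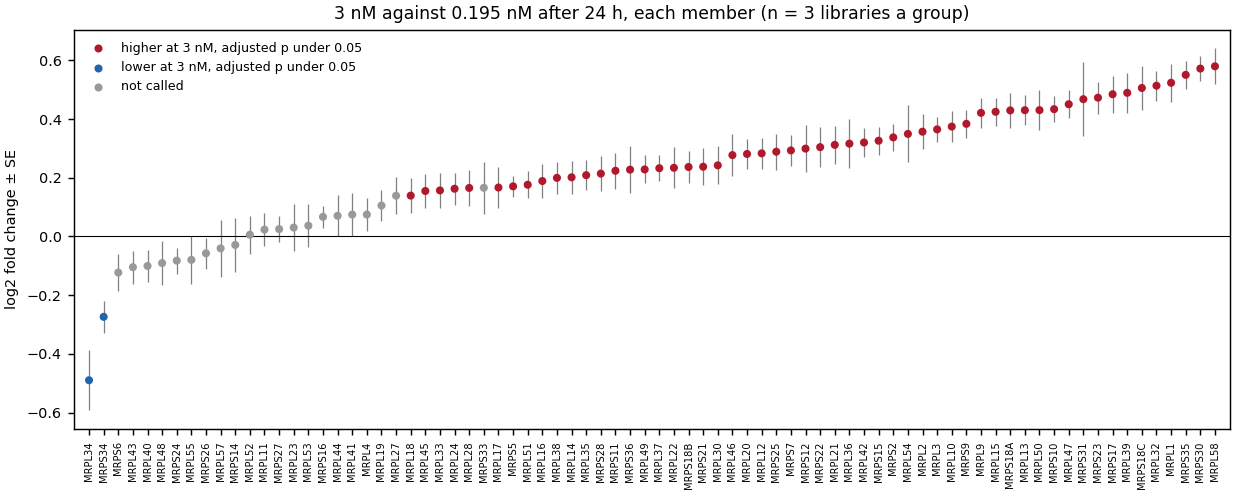
Log2 difference between 3 and 0.2 nM after 24 h for each of the 78 members (points, in order of size), with its SE as bars. Red marks 55 members higher at 3 nM and blue 2 members lower, MRPL34 and MRPS34.

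At 0.2 nM after 24 h, MRPS25 (1.10 ± 0.065), MRPL3 (0.77 ± 0.04), MRPL24 (0.76 ± 0.054), MRPS10 (0.73 ± 0.045) and MRPL1 (0.70 ± 0.068) had the highest fold changes. MRPL24, which lines the tunnel exit, measured 52.2, 52.6 and 54.4 CPM in set 1, 46.6, 44.1 and 46 in set 2, 79.3, 87.3 and 83 at 0.2 nM and 92.9, 94.5 and 91.9 at 3 nM. Both doses lay above all untreated libraries and did not overlap each other. The lowest were MRPS6 (-0.58 ± 0.058), MRPL33 (-0.53 ± 0.055), MRPL14 (-0.49 ± 0.051), MRPL28 (-0.25 ± 0.056) and MRPL16 (-0.20 ± 0.055, not called on TPM, adjusted p = 0.291). MRPL33 was lower at 0.2 nM (33.8, 46.2 and 39.1 CPM) than at 3 nM, a difference of 0.16 ± 0.059 (adjusted p = 0.0196) between doses whose libraries overlapped.

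At 0.01 nM after 24 h, MRPS25 rose, with 34.8, 34.7 and 33.5 CPM against at most 31.6 CPM untreated (0.40 ± 0.074, adjusted p = 1.3e-05). MRPL57 (0.26 ± 0.099, adjusted p = 0.0293) and MRPS12 (0.25 ± 0.085, adjusted p = 0.0125) came next. The MRPL57 call ended against set 1 alone (adjusted p = 0.107), and MRPS12 too (0.193). MRPL57 was also lost on leaving out any of replicates 1 or 3 at 0.01 nM, replicates 1 or 2 of set 1 or replicate 3 of set 2 (adjusted p = 0.0703 to 0.184), and MRPS12 without replicate 2 at 0.01 nM (0.119). MRPL14 (-0.36 ± 0.051), MRPS6 (-0.31 ± 0.057) and MRPL32 (-0.26 ± 0.054) had the lowest fold changes, that of MRPL32 being -0.07 and not called on TPM (adjusted p = 0.383).

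A group of 4 members was called lower at 0.01 nM and higher at both other doses after 24 h. This pattern was not counted over all genes, of which 22.2% were lower at 0.01 nM and 34.3% higher at 0.2 nM. The lower side rested on the scale: on TPM none of the 4 was called at 0.01 nM (adjusted p = 0.383 to 0.805), while each was still higher at 0.2 than at 0.01 nM (adjusted p at most 0.000511). MRPL15 (uL15, a core protein of the large subunit) measured 49.8, 47.3 and 43.6 CPM at 0.01 nM, 74.1, 74.4 and 69.6 at 0.2 nM and 97.4, 97.8 and 97.4 at 3 nM, against 48.9 to 57.5 untreated. MRPS17 (uS17, at the base of the small subunit) measured 24.3, 23.6 and 24.3, then 34.2, 40.2 and 37.4, then 52.1, 52.3 and 52.1 CPM, against 24.6 to 29.7 untreated. For both, the 3 doses did not overlap, and at 0.01 nM only MRPL15 shared its range with untreated. MRPL32, whose precursor is cut by a protease of the inner membrane before assembly, and MRPS22, a small subunit protein with no bacterial counterpart, had differences between 0.2 and 0.01 nM of 0.41 ± 0.062 and 0.37 ± 0.083. Those of MRPL15 and MRPS17 were 0.63 ± 0.059 and 0.63 ± 0.081. Over all members, 43 were higher at 0.2 than at 0.01 nM and 3 lower (51.5% of all genes called).

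Over time, members were first lower relative to other genes, rose in the hours after 1 h and were mostly highest at 16 h. All untreated libraries are from 0 h, so time in culture and dimerizer cannot be told apart in this course. After 1 h none was called higher at any dose, although 12.6%, 16.2% and 22.6% of all genes were at 0.01, 0.2 and 3 nM. Members called lower numbered 38 at 0.01 nM (28.1% of all genes called, 15.5% lower), 61 at 0.2 nM (35.2% called, 19% lower) and 59 at 3 nM (43.7% called, 21% lower). The medians were -0.18, -0.25 and -0.21. The dip held against either untreated set (30 to 61 members lower), but the number of calls depended on the scale. On TPM, where the median of all genes moved to 0.11, 0.18 and 0.20, 8, 11 and 8 members were lower and the medians were -0.06, -0.07 and -0.04. Of all 19305 genes on TPM, 559, 465 and 411 were called lower. With TMM the medians of all genes were -0.0007, 0.01 and 0.03, so the members' medians lay below those of all genes on both scales. The lowest at 3 nM were MRPL34 (-0.59 ± 0.086), MRPL41 (-0.45 ± 0.062) and MRPS34 (-0.43 ± 0.048), named after their values were seen. MRPL34 differed between the untreated sets, as given above, so its value rests on the control. The lowest value of any member was -0.82 against set 1 alone and -0.37 against set 2 alone.

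The turn came between 2 and 8 h. After 2 h, 2 members were higher and 34 lower at 0.01 nM (43.5% of all genes called, 21.5% higher and 22% lower), 1 and 46 at 0.2 nM (44.9% called, 22.4% each way), and 6 and 38 at 3 nM (50.5% called, 27.4% higher and 23.1% lower). On TPM 10, 12 and 9 members were lower after 2 h at the 3 doses, as were 1514, 1226 and 1172 of all 19305 genes. After 4 h, 17 were higher and 12 lower at 0.01 nM (52% called, 25.9% higher and 26.1% lower) and 18 and 24 at 0.2 nM (59.3% called, 30.1% higher and 29.2% lower). On TPM these became 30 higher and 4 lower and 32 and 7, so that the balance at 0.2 nM turned from more members lower to more higher. Of all 19305 genes on TPM, 5164 were higher and 2457 lower at 0.01 nM, and 6419 and 2564 at 0.2 nM. At 0.2 nM the members' median went from -0.02 to 0.12 and that of all genes from 0.01 to 0.15, so the members' median stayed below it. After 8 h, 39 were higher and 6 lower at 0.01 nM (53.8% called, 27.8% higher and 26% lower), 38 and 15 at 0.2 nM (63.7% called, 32.8% higher and 30.8% lower), and 50 and 12 at 3 nM (72.5% called, 38.5% higher and 34% lower). Those lower on TPM after 8 h numbered 3, 7 and 5, beside 2511, 3214 and 3564 of all 19305 genes. At 2 h the members called higher were few beside the genes at large, and at 8 h they were many; these shares were not tested against each other.

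After 4 h at 3 nM, 33 members were higher and 19 lower (66.8% of all genes called, 34.9% higher and 31.9% lower). The share of members called either way was near that of all genes. On TPM 32 were higher and 10 lower, beside 5372 and 3282 of all 19305 genes. MRPS35 (71.4, 69.6 and 69.6 CPM, 0.75 ± 0.041), MRPS30 (74.8, 72.1 and 70.8 CPM, 0.69 ± 0.038) and MRPS25 (42.5, 40.5 and 43.3 CPM, 0.69 ± 0.059) already lay above all untreated libraries. MRPL34 (9.87, 8.03 and 9.52 CPM, -0.84 ± 0.09), MRPL51 (85.3, 80.1 and 80.8 CPM, -0.45 ± 0.04) and MRPS33 (15.3, 14.7 and 13.2 CPM, -0.43 ± 0.074) lay below all of them. Of these, MRPL51 and MRPS33 were back within the untreated range in at least 2 of 3 libraries at 24 h (117, 114 and 110 CPM, and 20.9, 20.3 and 19.6 CPM) and were not called there. The size of the MRPL34 fall rests on the control, as its untreated sets differed.

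**Figure D4:**
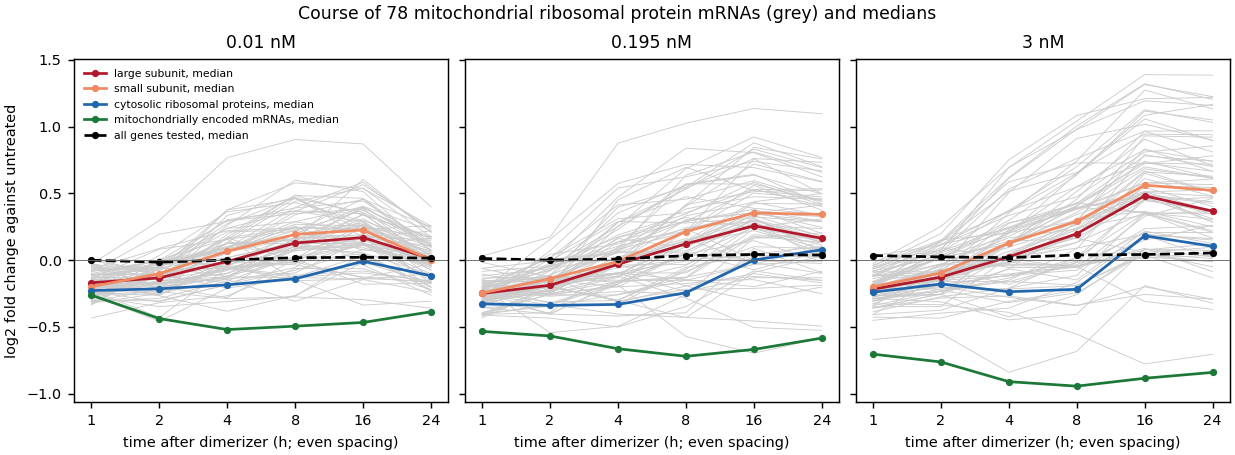
Log2 fold change against untreated by hours after dimerizer at 3 doses, with 1 grey line per member, medians of the large (red) and small (orange) subunit, of cytosolic ribosomal proteins (blue) and of mRNAs of mitochondrial DNA (green), and the median of all genes tested (dashed). Both subunit medians start below 0 and peak at 16 h, at 0.48 (large) and 0.56 (small) at 3 nM, and at 0.01 nM both are back near 0 at 24 h.

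After 16 h, 46 members were higher and 5 lower at 0.01 nM (52.7% of all genes called, 26.9% higher), 52 and 7 at 0.2 nM (66.4% called, 34.9% higher) and 63 and 5 at 3 nM (76.1% called, 40.6% higher), with medians of 0.19, 0.30 and 0.50. By mean CPM, 57 of the 78 were highest at 16 h at 3 nM, 49 at 0.2 nM and 41 at 0.01 nM, and 69 were lowest at 1 h at 3 nM. Times of the highest and lowest mean were not counted over all genes, so these counts have no share beside them. The comparison of 16 with 1 h uses no untreated library and was added after the course was seen. It gave 57 higher and 1 lower at 0.01 nM (47.4% of all genes called), 64 and 2 at 0.2 nM (61.9%) and 74 and 2 at 3 nM (76.1%). MRPL3 shows the course at 3 nM: 72.4, 69 and 62.9 CPM at 1 h, 107, 103 and 100 at 4 h, 129, 137 and 139 at 8 h, 191, 198 and 199 at 16 h and 181, 178 and 173 at 24 h. Its libraries rose without overlap from 1 to 16 h over these times and were lower again at 24 h (-0.14 ± 0.038, adjusted p = 0.00466).

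After 16 h the members levelled or fell. From 16 to 24 h, 43 members fell and none rose at 0.01 nM (23.6% of all genes called, 13.2% lower, members' median -0.21). On TPM 23 members were lower at that dose, beside 1103 of all 19305 genes. At 0.2 nM 6 fell, a share near that of all genes, of which 1092 of 18040 were lower (10.2% called). At 3 nM 20 fell, beside 2069 of all 18040 genes that were lower (21.1% called, members' median -0.06). None rose at 0.2 or 3 nM. On TPM no member was called at 3 nM by limma, which called 322 of all 19305 genes higher and 444 lower. The members' median there was -0.04, with that of all genes at 0.02. The calls at that dose thus rested on the scale and the test used with it, while the median stayed below 0. MRPS25 went from 45.5, 46.4 and 51.5 CPM at 16 h to 34.8, 34.7 and 33.5 at 24 h at 0.01 nM (-0.47 ± 0.082, adjusted p = 8.59e-06), but from 67.3, 67.3 and 70.1 to 72.4, 66.8 and 64.9 at 3 nM (-0.00 ± 0.053, adjusted p = 0.978). The libraries of the low dose were apart and those of the high dose overlapped. The difference of these changes between doses was not tested.

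From 4 to 24 h at 3 nM, 66 members rose and 2 fell (67.9% of all genes called), with a median of 0.40. MRPL24 (0.99 ± 0.052), MRPS10 (0.80 ± 0.041), MRPL3 (0.78 ± 0.039), MRPL2 (0.75 ± 0.053) and MRPS15 (0.72 ± 0.044), a small subunit protein near the subunit interface, rose most. For MRPL24 the libraries went from 46.5, 48.3 and 46.2 CPM, within the untreated range, to 92.9, 94.5 and 91.9. The members that fell were MRPL33 (-0.35 ± 0.048) and MRPS6 (-0.31 ± 0.053). Over the same interval 44 rose and 4 fell at 0.2 nM (51.8% called), and 15 rose and 15 fell at 0.01 nM (45.2% called).

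The 3 paralogs of bacterial ribosomal protein S18 sit at separate places, MRPS18C at the bacterial site, MRPS18B elsewhere in the small subunit and MRPS18A in the large subunit. MRPS18C measured 25.8, 28.8 and 22.9 CPM in set 1, 30.8, 26.2 and 30 in set 2 and 56.5, 56.1 and 55.3 after 24 h at 3 nM (1.03 ± 0.064). MRPS18B went from 37.8 to 44.6 CPM untreated to 72.4, 76.1 and 74.2 (0.89 ± 0.047). MRPS18A went from 34.7 to 41.9 CPM to 50.1, 51.9 and 51.2 (0.44 ± 0.048). All 3 rose with no overlap. At 0.2 nM MRPS18C (0.52 ± 0.079) and MRPS18B (0.66 ± 0.056) rose, while MRPS18A had 35.1, 38.3 and 40.3 CPM, within the untreated range (0.01 ± 0.06, adjusted p = 0.933). The paralogs were not tested against each other.

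MRPL12, the stalk protein that binds elongation factors, measured 64.4, 62.4 and 65.4 CPM in set 1, 58, 54.3 and 58.7 in set 2, 82, 85.9 and 75.6 at 0.2 nM and 96.8, 102 and 97.2 at 3 nM after 24 h. Both doses lay above all untreated libraries, with log2 fold changes of 0.42 ± 0.05 and 0.71 ± 0.043. MRPS12, the uS12 protein at the decoding site (chr19:38930548-38933162, plus strand), overlaps by 348 bases the start of SARS2 (chr19:38915266-38930896, minus strand), the serine tRNA synthetase of mitochondria. MRPS12 measured 16.8 to 21.2 CPM untreated and 33.3, 31.1 and 32 at 3 nM (0.74 ± 0.066). SARS2 measured 12.1 to 14.1 CPM untreated and 11.3, 10.4 and 10.2 at 3 nM (-0.33 ± 0.125, adjusted p = 0.014), with no overlap for either gene. The SARS2 call ended on TPM (adjusted p = 0.0702) and without replicate 3 at 3 nM (0.0501). The libraries came from a directional kit, per the labels, but the sources used here do not give whether counting used strand, so reads of such overlapping pairs may be shared. In GENCODE 29, 13 members overlap another protein-coding gene on the same strand and 26 on the opposite strand, and 34 members have named pseudogenes in the table (73 in all), which makes their estimated counts less certain.

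**Figure D5:**
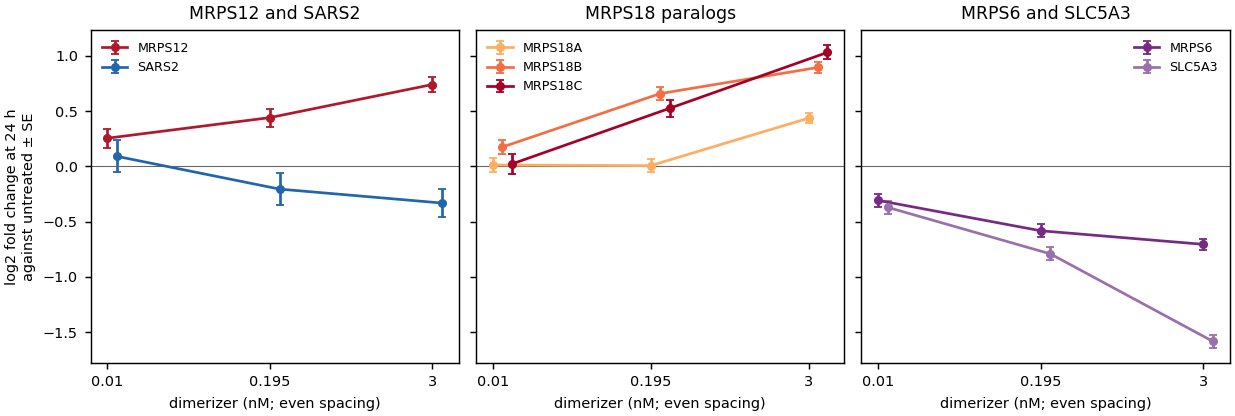
Log2 fold change after 24 h against untreated, with SE as bars, at 3 doses for MRPS12 and its overlapping neighbour SARS2 (left), the 3 MRPS18 paralogs (middle) and MRPS6 with SLC5A3, which lies within it (right). MRPS12 rises to 0.74 and SARS2 ends at -0.33 at 3 nM, MRPS18A is near 0 at the lower doses, and MRPS6 and SLC5A3 end at -0.71 and -1.58.

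MRPS36, the symbol outside the ribosome, was not called at 3 nM after 24 h (0.10 ± 0.063, adjusted p = 0.158) and was lower at 0.01 nM (-0.24).

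Other genes of mitochondrial translation were read from lists drawn up with earlier results of these data known. Beside their counts at 3 nM after 24 h, 41.1% of all genes tested were higher and 36% lower. After 24 h at 3 nM, all 5 ribosome subunits with other names that were tested rose, among them DAP3 (0.80 ± 0.035), GADD45GIP1 (0.63 ± 0.049) and PTCD3 (0.33 ± 0.041). Of 25 assembly factors 22 were higher and 1 lower (median 0.66). MRM1 (1.35 ± 0.074) and NSUN4 (1.09 ± 0.049), which methylate ribosomal RNA, and GTPBP10 (1.05 ± 0.056), a GTPase of large subunit assembly, had the highest values, and NOA1, a GTPase of small subunit assembly, was the lower one (-0.29 ± 0.046). NSUN4 and GTPBP10 were already at that level after 4 h (1.15 ± 0.049 and 1.07 ± 0.055).

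Of 16 translation factors 13 were higher and 2 lower (median 0.77). The initiation factor MTIF2 had 51.2 to 59.6 CPM in untreated libraries and 155, 154 and 145 at 3 nM (1.40 ± 0.04), a separation of over 2-fold. GUF1, an elongation GTPase (1.29 ± 0.035), and LRPPRC, which stabilises mitochondrial mRNA (1.19 ± 0.028), were the next highest. The elongation factor TUFM rose less (0.18 ± 0.033). OXA1L, which inserts new proteins into the inner membrane (-0.25 ± 0.037), and the initiation factor MTIF3 (-0.19 ± 0.075) were lower, and the MTIF3 call ended against set 2 alone (adjusted p = 0.152), on TPM (0.405) and without replicate 3 at 3 nM (0.181).

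Of 17 tRNA synthetases of mitochondria 12 were higher and 2 lower (median 0.29). MARS2, for methionine, went from 8.26 to 12.5 CPM untreated to 37.2, 35.5 and 36.7 (1.85 ± 0.078), followed by PARS2 (0.96 ± 0.097) and NARS2 (0.70 ± 0.036), and LARS2 rose by 0.34 ± 0.055. SARS2, described above, was among the lower ones, and on TPM none was called lower. TFAM, which packages mitochondrial DNA and starts its transcription, rose (0.65 ± 0.032), and with it counted, 6 of the 7 tested genes for expression and copying of mitochondrial DNA were higher (median 0.87).

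The products of mitochondrial DNA did not rise with these genes. All 13 mRNAs of mitochondrial DNA and both of its ribosomal RNAs were lower after 24 h at 3 nM (medians -0.84 and -0.84), and against set 2 alone 12 of 13 mRNAs were lower with a median of -0.30. The share of counts from these mRNAs differed between the untreated sets, as given above, so the size of that fall rests on the control. Of the 83 tested proteins of the cytosolic ribosome, 44 were higher and 20 lower (41.1% and 36% of all genes), with a median of 0.10. Their course at 3 nM was like that of the members. After 1 h 78 were lower and none higher (median -0.24), beside 21% and 22.6% of all genes. From 1 to 16 h 78 rose and 2 fell (median 0.41), beside 37.8% and 38.3% of all genes. From 4 to 24 h 76 rose and 1 fell (median 0.36), beside 34.5% and 33.4% of all genes. The early dip and the later rise were thus not particular to the mitochondrial ribosome.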

How the data were processed

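Total RNA from 60 samples was made into directional libraries and sequenced, per the labels' protocols. The authors deposited estimated counts and TPM values per gene. Salmon 0.9.1, FastQC 0.11.5 and GRCh38 are named, without their roles, in the submitters' processing notes, while the sources used here do not name the annotation. Of the counts, 77.8% were whole as deposited, and all were rounded. Genes passing filterByExpr (18040) were fitted in edgeR 4.0.16 (R 4.3.3) by the quasi-likelihood test with TMM scaling, 1 mean for each of 20 groups, and Benjamini-Hochberg adjustment within each contrast. Contrasts with untreated took the average of the group means of set 1 and set 2. The SE is the log2 fold change divided by the square root of F. The test was tested on simulated data.

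The members and gene lists were chosen with earlier results of these data known. Named genes were, by rule, those with the highest and lowest fold changes among members called (up to 8 each way after 24 h at 3 nM, and 5 or 3 in the other contrasts), the 3 highest and 3 lowest untreated levels, members called in opposite directions at 2 doses, a few fixed by name, and up to 3 called each way from each other list. Others are marked in the text. Members called in opposite directions also needed a called difference between the doses to be named. A gene that this rule names is not reported here. Alternatives were DESeq2 1.42.0 and its size factors, no filter, limma 3.58.1 on log2(TPM + 1) and log2(TPM + 0.1), each untreated set alone, only the compared groups, a replicate block and each replicate left out. For the course from 1 to 16 h, from 16 to 24 h and between untreated sets, alternatives were chosen after seeing the data. Gene positions are from GENCODE 29, in which 57068 of the 57665 gene IDs matched (99%), and promoter windows from RefSeq GRCh38.p14. Intervals on counts were not used, and the 3.19-fold gap in median depth makes the values of the shallower libraries less precise.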

Additional observations from a re-analysis of the deposited data

Results flagged for a closer look

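After 24 h, 4 members were called lower at 0.01 nM and higher at 0.2 nM, with the difference between the doses called by edgeR's quasi-likelihood test. A called difference was a condition of the rule that picked them, so it adds no support. How many of all genes meet this rule was not counted. The log2 difference was 0.6297 for MRPL15 (from -0.16 to 0.47), 0.6324 for MRPS17 (from -0.18 to 0.45), 0.414 for MRPL32 (from -0.26 to 0.15) and 0.3702 for MRPS22 (from -0.21 to 0.17). The adjusted p-values of these differences were 6.75e-14, 1.48e-09, 6.71e-08 and 0.000144. All 3 libraries at 0.2 nM lay above all 3 at 0.01 nM for each of the 4 genes. On TPM the differences were 0.63, 0.64, 0.40 and 0.37 and each was called by limma, but the lower call at 0.01 nM ended for MRPL15 (-0.02, adjusted p = 0.805), MRPS17 (-0.06, 0.694), MRPL32 (-0.07, 0.383) and MRPS22 (-0.09, 0.412). In edgeR the adjusted p of the lower side was 0.0455 for MRPS17, 0.0189 for MRPS22 and 0.0132 for MRPL15, and these calls also ended against set 1 alone for MRPS17 (0.164) and MRPS22 (0.123) and against set 2 alone for MRPL15 (0.0914). Without 1 library at 0.01 nM the adjusted p reached 0.14 for MRPS17 and 0.121 for MRPS22 (both without replicate 2) and 0.148 for MRPL15 (without replicate 3). The higher side at 0.2 nM ended without replicate 2 of that dose for MRPL32 (0.202) and MRPS22 (0.266).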

How the results depend on the processing

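After 24 h at 3 nM the median log2 fold change of the members (0.43) was 0.394 with DESeq2's size factors, 0.391 with its Wald test, 0.509 with no filter, 0.499 and 0.507 on log2(TPM + 1) and log2(TPM + 0.1), 0.382 and 0.479 against untreated set 1 and set 2 alone, 0.397 with only the compared groups and 0.407 to 0.437 with a replicate left out. At 0.2 nM, TPM gave 5 lower and a median of 0.37. At 0.01 nM the median (0.00874) was -0.00298 with DESeq2's size factors, -0.0012 with its Wald test, -0.0288 against set 1 alone, 0.138 on TPM and -0.021 to 0.00973 with a replicate left out. There, members higher numbered 11 with no filter, 33 on TPM, 3 against set 1 alone and 8 to 18 with a replicate left out, and members lower 2 on TPM, 8 against set 2 alone and 7 to 15 with a replicate left out. Between 3 and 0.2 nM, TPM gave 35 higher and 6 lower (median 0.18), the untreated set of like depth 0 lower (0.352), only the compared groups 5 lower (0.203), no filter a median of 0.318 and a replicate left out 0.188 to 0.268. From 4 to 24 h at 3 nM the median was 0.447 with no filter, 0.378 with only the compared groups and 0.382 to 0.417 with a replicate left out. On TPM, members lower at 0.01, 0.2 and 3 nM numbered 8, 11 and 8 after 1 h, 10, 12 and 9 after 2 h, 4, 7 and 10 after 4 h and 3, 7 and 5 after 8 h; members higher became 4 (0.2 nM) and 11 (3 nM) after 2 h and 30 (0.01 nM) and 32 (0.2 nM) after 4 h. From 16 to 24 h TPM gave 23 lower at 0.01 nM and 0 at 3 nM, and between the untreated sets 23 higher and 0 lower in set 2. DESeq2's size factors gave 3 higher after 2 h at 3 nM and 1 higher in set 2. The cause of these shifts was not tested. On TPM, TFAM at 0.01 nM turned to 0.1534 (from -0.06) and LARS2 from 4 to 24 h to -0.0081 (from 0.16). Among other alternatives for single genes, 79 lost and 13 gained a call and 1701 did neither.

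Labels number the replicates 1 to 3 in every group. Over 24 pairs of same-numbered samples the correlation of deviations ran from -0.189 to 0.083, so the numbers were not taken as pairs. With a replicate block 61 members were higher and 6 lower after 24 h at 3 nM (median 0.43), and between 3 and 0.2 nM after 24 h 56 were higher in place of 55. No named gene gained or lost a call under it.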

Other observations

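The median fold change after 24 h at 3 nM differed with transcript length. With the 78 members ordered by CPM per TPM, a measure of relative transcript length, the median log2 fold change was 0.19 in the 26 shortest, 0.45 in the middle 26 and 0.59 in the 26 longest. This is a description across genes that share libraries, and whether length or its estimation moves these values was not tested.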
